A study of Schizosaccharomyces pombe with 36 samples.

Results

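Fission yeast (Schizosaccharomyces pombe) genes whose RNA was lower both after loss of Tti2 and after loss of Tra2 were followed through every other mutant of the series. Tti2 is a subunit of TTT, a cochaperone of Hsp90 that helps large kinases of the PIKK family to mature. Tra2 is the PIKK-like pseudokinase of NuA4, a histone acetyltransferase complex. Its paralog Tra1 belongs to SAGA, a second transcription co-activator, and Spt20 is a core subunit of SAGA. The set holds 53 of the 5129 genes counted.

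RNA-seq counts came from 36 libraries, 3 biological replicates in each of 12 conditions, all grown in the rich medium YES. The 3 strains creER, tti2-CKO (lox-tti2-lox) and tra2-CKO (lox-tra2-lox) all carry cre-ER, a Cre recombinase that β-estradiol switches on, and were given DMSO or β-estradiol for 21 h (creER, tra2-CKO) or 18 h (tti2-CKO). The other 6 strains carry no cre-ER and grew in YES alone: WT, tra1Δ (tra1D in the labels and plots), tra1-Sptra2, tra1-Sctra1, spt20Δ (spt20D) and spt20-HITΔ (titled spt20-TID, genotype spt20-HITD-PK3). Both hybrid alleles swap a short stretch of Tra1, for the stretch of S. pombe Tra2 or of S. cerevisiae Tra1 at that place. spt20-HITΔ lacks only the short part of Spt20 that binds Tra1 and carries a PK3 tag that WT does not. Each genotype is a single strain, so a difference between strains cannot be told apart from one that only that isolate carries.

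The members were selected on CPM, a gene's count divided by the total of its library and scaled to 1000000. Of the 5129 genes, 4653 had a mean of at least 10 CPM over the 36 libraries. M is the log2 ratio of the mean CPM plus 1 with β-estradiol to that with DMSO. A mean at least 1.5-fold lower in tti2-CKO on this scale left 250 genes, an M of at most −0.4 in tra2-CKO as well left 86, and an M within 0.3 of 0 in creER left the 53. These 3 contrasts therefore chose the members and are described without a test. The strains grown in YES alone entered the rule only through the level filter, and they carry the tests. The rule was nevertheless set with earlier results of these data known.

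Total counts per library ranged from 4811942 to 9724398, and the lowest correlation between 2 cultures of a group was 0.97. The deleted genes followed their labels. With β-estradiol, tti2 lay at 0.30 to 0.80 CPM in tti2-CKO and tra2 at 7.15 to 10.003 CPM in tra2-CKO. With DMSO, tti2 was at 10.4, 9.35 and 13.9 CPM in tti2-CKO and tra2 at 121, 117 and 103 CPM in tra2-CKO. In WT, tti2 lay between 13.0 and 18.4 CPM and tra2 between 110 and 120 CPM. tra1 was at most 0.71 CPM in tra1Δ, where WT had 89.0 to 95.2 CPM. spt20 was 3.68 to 5.39 CPM in spt20Δ and 25.1 to 33.0 CPM in spt20-HITΔ, against 35.3 to 40.4 CPM in WT.

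A growing yeast cell spends a large part of its transcription on ribosomes. The ribosomal protein genes mostly come in pairs of near-identical copies, and are transcribed together with the genes for ribosome assembly, for RNA polymerases I and III and for translation. In fission yeast many of their promoters hold a short element called HomolD, in the place where other genes have a TATA box. By gene symbol (rpl, rps or rpp) and product name together, 15 of the 53 members are cytosolic ribosomal proteins. The other members were assigned to classes gene by gene, not by product name alone. Of these, 8 serve ribosome assembly, ubiquitin-L40 or RNA polymerases I and III, 5 serve translation, 5 folate, purine or amino acid metabolism, 4 heme and sphingolipids, and 16 fall in none of these.

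The median M of the members was −0.79 with loss of Tti2, −0.50 with loss of Tra2 and −0.17 in creER. Over all 4653 genes it was 0.07, 0.08 and −0.01. M was lower in tti2-CKO than in tra2-CKO for 48 members. All 3 libraries with β-estradiol lay below all 3 with DMSO for 53 members in tti2-CKO, where 19.2% of the 4653 genes did so. In tra2-CKO this held for 50 members (17.4% of genes) and in creER for 15 (5.82%). The rule used these libraries, so nothing is read from those counts. The members sat below 0 in creER too, 45 of 53, inside the band the rule allows. With M of creER subtracted, the median was −0.67 in tti2-CKO and −0.39 in tra2-CKO, and 35 and 25 members respectively still passed the thresholds.

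**Figure D1:**
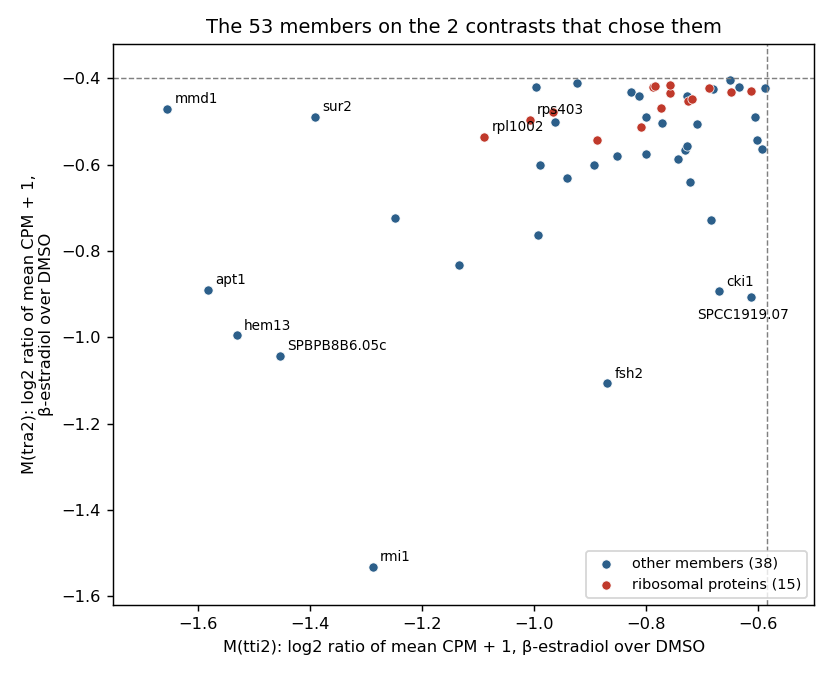
Each of the 53 members by M in tti2-CKO (horizontal axis) and in tra2-CKO (vertical axis), both log2 ratios of mean CPM plus 1 with β-estradiol over DMSO, with ribosomal proteins in red and the thresholds as broken lines. The ribosomal proteins crowd near the tra2 threshold, between −0.54 and −0.42, whereas rmi1 (−1.53), fsh2 (−1.11) and SPBPB8B6.05c (−1.04) lie farthest below it.

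Membership depends on the scaling and on single cultures. Scaling the CPM by TMM totals would give 120 members, which include all 53, and medians in place of means would give 49, of which 38 are shared. With each of the 18 cultures of the rule left out in turn, between 41 and 59 genes passed, and 17 of the 53 members passed every time. Without tra2-CKO DMSO replicate 1, 10 members dropped out. For sur2, M in tra2-CKO turned from −0.49 to 0.08, for thf1 it went from −0.41 to −0.08 and for hem13 from −0.995 to −0.29. Without creER DMSO replicate 1, 13 members dropped out, among them hem13 and sur2, which then stood above the creER band at 0.68 and 0.76, and rrp8, below it at −0.47. Without tra2-CKO DMSO replicate 3, 13 dropped out, 9 of them ribosomal proteins, and M of the 13 in tra2-CKO lay between −0.40 and −0.28. The members nearest the thresholds were rrp8 (−0.5874 in tti2-CKO) and slf1 (−0.403 in tra2-CKO), and the nearest genes outside were utp4 (−0.5848) and rpl1601 (−0.397). On the creER side apt1 (−0.28) was just inside and his1 (−0.31) just outside.

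The ribosomal protein members make parts of both subunits, such as rps403 (eS4) and rps001 (uS2) of the small subunit and rpl501 (uL18), rpl1801, rpl1902 and rpl702 of the large one. In tti2-CKO, rps403 was at 1854, 1870 and 1720 CPM with DMSO and at 917, 868 and 921 CPM with β-estradiol. In tra2-CKO it was at 1738, 1767 and 1820 CPM with DMSO and at 1317, 1250 and 1207 CPM with β-estradiol. The 2 treatments did not overlap in either strain, but the rule used these cultures, so nothing is read from that. In WT, rps403 was at 1923, 1949 and 1928 CPM, and in spt20Δ at 1303, 1314 and 1177 CPM. The spt20Δ cultures thus lay within the range of tra2-CKO with β-estradiol or just below it. In spt20-HITΔ it was at 1805, 1767 and 1729 CPM, below every WT culture and above every spt20Δ culture. The log2 fold change of rps403 in spt20Δ was −0.82 (SE 0.077, adjusted p = 0.0002 by the edgeR quasi-likelihood F-test, Benjamini-Hochberg adjusted).

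The HomolD element, CAGTCACA on either strand, was searched from 250 bases before to 50 bases after the annotated start of each transcript, in RefSeq gene models of assembly ASM294v3. It occurred in 9 of the 15 ribosomal protein members, in 2 of the 38 others and in 2.92% of the genes of at least 10 CPM. Of the 122 ribosomal protein genes that are not members, 63.9% held it, so the element does not set the members apart from their class. In the ribosomal protein members it lay 74 to 45 bases before the start. The 60 bases around it are shown for 4 of these ribosomal proteins, as examples of their common spacing, and for both other members that hold it. The element is in capitals, and each stretch reads 5′ to 3′ on the strand of the gene.
rps403: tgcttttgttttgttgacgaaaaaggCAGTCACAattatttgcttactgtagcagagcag
rpl702: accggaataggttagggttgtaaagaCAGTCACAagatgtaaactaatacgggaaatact
rpl501: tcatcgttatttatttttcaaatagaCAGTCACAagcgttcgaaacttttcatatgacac
rpl1902: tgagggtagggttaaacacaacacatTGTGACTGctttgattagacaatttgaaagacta
ubi2: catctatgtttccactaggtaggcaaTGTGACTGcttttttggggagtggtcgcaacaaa
rmi1: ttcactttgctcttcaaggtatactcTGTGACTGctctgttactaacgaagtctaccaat
In ubi2 and rmi1, as in rpl1902 and rpp203, the element reads backwards (TGTGACTG) with respect to the gene. In ubi2 and rmi1 it also lies farther out, 88 and 98 bases before the start, and the next gene upstream is a ribosomal protein gene that runs the other way. That gene is rpl14 for ubi2, 125 bases away, and rpl2002 for rmi1, 136 bases away. M of rpl14 was −0.17 in tti2-CKO and −0.06 in tra2-CKO, against −0.81 and −0.44 for ubi2. For rpl2002 it was −0.43 and −0.24, against −1.29 and −1.53 for rmi1.

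Other elements were rarer or no more frequent than elsewhere. HomolE, AGGGTAGGG on either strand, occurred before 3 members (rpl803, rpl2401 and rpl1902) and before 1.68% of the genes of at least 10 CPM, but before 37.7% of the ribosomal protein genes that are not members. TATAAA on either strand occurred in 22 of the 53 members (41.5%) and in 48.3% of all those genes. The members were expressed at a median of 356 CPM, where all those genes had 89.3 CPM. Their median coding length was 882 bases against 1182 bases, and their median GC content 38.9% against 37.3%. For 41.3% of the 50-base windows of rpl1002 and 73.3% of those of SPBPB8B6.05c the same sequence occurs elsewhere in the genome, so their counts are uncertain. For no other member was that share above 10%.

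The first comparison of libraries that did not enter M was spt20Δ against WT. Calls needed an edgeR adjusted p no higher than 0.01. Of the 53 members 35 fell (12.8% of the 4920 genes tested fell) and 2 rose (13.1% rose). All 15 ribosomal protein members fell, with log2 fold changes from −0.98 (rpl1002) to −0.40 (rpl2301). The median over the members was −0.62, and 0.02 over all genes tested. Of the other 38 members 20 fell, 2 rose and 16 were not called.

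These values use TMM normalization. Scaling by the column totals alone would move the median of all genes in spt20Δ up by 0.20 on the log2 scale, to 0.23. The median of the members was then −0.41, with 27 called lower and 3 higher. The share of all genes called under that scaling was not counted. With the 5 cultures left when 1 is omitted, between 27 and 37 members were called. Among the members named here, column totals ended the calls of fsh2, sur2 and rrp8 and added thf1 as higher (0.51, adjusted p = 0.0055).

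**Figure D2:**
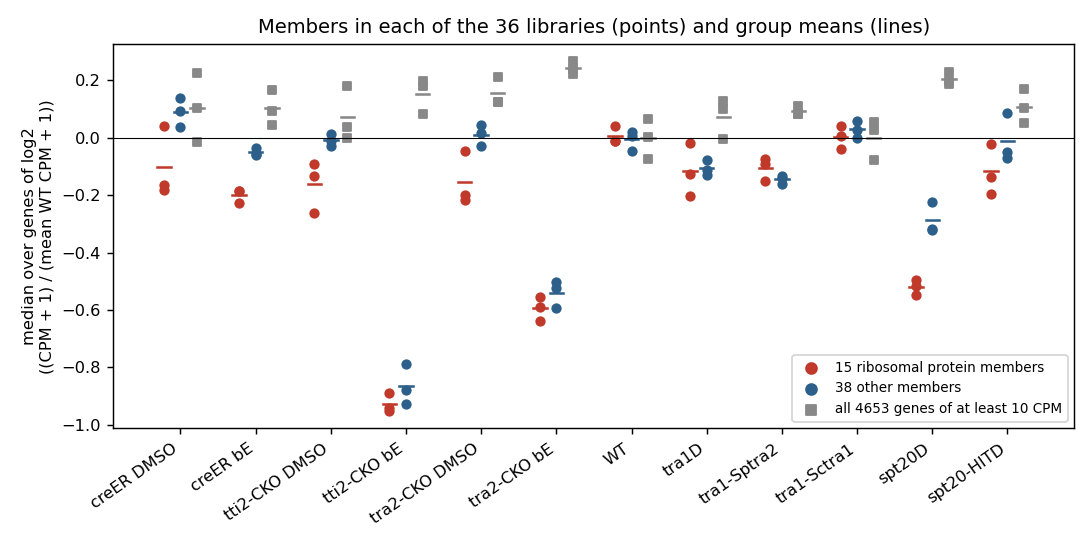
For each of the 36 libraries (points; lines are means of 3 libraries), the median over genes of the log2 ratio of CPM plus 1 to the mean WT CPM plus 1, for the 15 ribosomal protein members (red), the 38 other members (blue) and all 4653 genes of at least 10 CPM (grey). The tti2-CKO and tra2-CKO cultures with β-estradiol, which chose the members, are lowest, and the 3 spt20Δ cultures are the lowest of the strains grown in YES alone, with grey and coloured points on opposite sides of 0.

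Among the members for ribosome assembly and RNA polymerases, 7 of 8 fell in spt20Δ and the median was −0.63. acl4, whose S. cerevisiae namesake is a chaperone of ribosomal protein L4, was at 170, 145 and 194 CPM in WT and at 93.7, 88.4 and 117 CPM in spt20Δ (log2 fold change −0.97, SE 0.12, adjusted p = 0.00053 from edgeR). dbp3, an RNA helicase of ribosome assembly, fell by 0.85 on the log2 scale (SE 0.076). cbf5, the pseudouridine synthase of box H/ACA snoRNPs, went from 859, 825 and 873 CPM to 680, 675 and 727 CPM, a smaller step with no overlap. ubi2, which encodes ubiquitin fused to ribosomal protein L40, was at 1027, 1055 and 1016 CPM in WT and at 778, 757 and 722 CPM in spt20Δ. rpc11, a subunit of RNA polymerase III, was not called (−0.14, adjusted p = 0.16), while rpa43 of RNA polymerase I fell by 0.31.

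Of the 5 translation members 4 fell. mmd1, the deoxyhypusine hydroxylase that completes the modified lysine of the factor eIF5A, had the lowest fold change of all members. It was at 430, 522 and 410 CPM in WT and at 118, 85.6 and 144 CPM in spt20Δ, and its log2 fold change was −2.18 (SE 0.19, adjusted p = 0.00015 from edgeR). With β-estradiol, mmd1 was at 183, 127 and 120 CPM in tti2-CKO, which overlaps the range in spt20Δ. In tra2-CKO with β-estradiol it was at 315, 301 and 333 CPM, and 386 to 512 CPM with DMSO. srm1, the spermidine synthase whose product donates to that same modification, was at 1000, 1005 and 1028 CPM in WT and at 666, 665 and 632 CPM in spt20Δ. prs1, a prolyl-tRNA synthetase, fell by 0.64 (SE 0.060), and the cysteinyl-tRNA synthetase gene SPAC29E6.06c was not called (−0.28, adjusted p = 0.013).

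The metabolic members went both ways. apt1, the adenine phosphoribosyltransferase of purine salvage, was at 428, 417 and 431 CPM in WT and at 217, 194 and 231 CPM in spt20Δ (log2 fold change −1.20, SE 0.076, adjusted p = 3e-05 from edgeR). shm1, a serine hydroxymethyltransferase that feeds folate with carbon units, was instead higher in spt20Δ, at 3564, 3287 and 3007 CPM against 1911, 2215 and 2011 CPM in WT (0.48, SE 0.10, adjusted p = 0.0063 from edgeR). The call on shm1 was lost without WT replicate 1 or 3 or spt20Δ replicate 1 or 2 (adjusted p from 0.014 to 0.038). thf1, another enzyme of folate metabolism, was at 495, 448 and 391 CPM in spt20Δ and 295, 357 and 288 CPM in WT, which was not called (0.30, adjusted p = 0.096). shm1 and thf1 are also among the members that drop out without tra2-CKO DMSO replicate 1.

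hem13 and sur2 fell in spt20Δ, and both varied widely among cultures of a group. hem13 encodes the coproporphyrinogen oxidase of heme synthesis, and sur2 a hydroxylase of sphingolipid bases. Both enzymes use oxygen. hem13 was at 899, 1457 and 507 CPM in WT and at 321, 251 and 232 CPM in spt20Δ (−2.06, SE 0.35, adjusted p = 0.0024 from edgeR). Without WT replicate 1 or spt20Δ replicate 1 or 2 its adjusted p was 0.011 to 0.014, past the limit. In creER with DMSO it was at 1626, 383 and 484 CPM, and in tra2-CKO with DMSO at 1388, 436 and 528 CPM, so replicate 1 stood apart in both. Replicate 1 also stood apart in creER with β-estradiol (1430, 311 and 346 CPM), but not in tra2-CKO with β-estradiol (391, 370 and 417 CPM). sur2 stood apart in the same cultures, at 1248, 432 and 458 CPM in creER with DMSO. In WT sur2 was at 804, 1262 and 474 CPM, and in spt20Δ at 344, 363 and 434 CPM (−1.38, SE 0.32, adjusted p = 0.0086 from edgeR). The call on sur2 was lost without WT replicate 1 or 2 or any 1 spt20Δ replicate (adjusted p from 0.011 to 0.042). scs7, another sphingolipid hydroxylase, was not called (−0.56, adjusted p = 0.065), nor was cyb502, a cytochrome b5 (−0.37, adjusted p = 0.018).

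The 16 members outside these classes held 6 that fell in spt20Δ, 1 that rose and 9 not called. The transporter gene SPBC1271.10c fell by 0.85 (SE 0.12), and ani1, an FKBP-type prolyl isomerase, by 0.75 (SE 0.088). SPACUNK4.15, annotated as a cyclic-nucleotide phosphodiesterase, was higher in spt20Δ, at 80.5, 76.3 and 69.8 CPM against 42.1, 38.3 and 33.8 CPM in WT (0.78, SE 0.11, adjusted p = 0.00099 from edgeR). It passed the rule in 11 of the 18 sets with a culture left out.

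rmi1, a partner of the RecQ helicase in genome maintenance, had the lowest sum of the M values that chose the members. It was at 24.0, 31.1 and 22.3 CPM with DMSO and 9.97, 9.60 and 10.4 CPM with β-estradiol in tti2-CKO. In tra2-CKO it went from 16.9, 17.6 and 20.03 CPM to 5.07, 6.6 and 5.25 CPM, and even its DMSO cultures lay below every WT culture. In WT it was at 27.3, 24.4 and 30.8 CPM and in spt20Δ at 25.88, 25.96 and 28.7 CPM, values that overlap. In none of the 5 mutants was rmi1 called, and its log2 fold changes against WT lay between −0.26 and 0.00, with an SE of 0.11 in spt20Δ. SPBC1773.13, an aromatic aminotransferase gene, and SPAC5H10.05c, an oxidoreductase gene, are likewise among the 10 lowest members by that sum and were not called in spt20Δ (−0.13 and −0.07, adjusted p = 0.39 and 0.53).

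**Figure D3:**
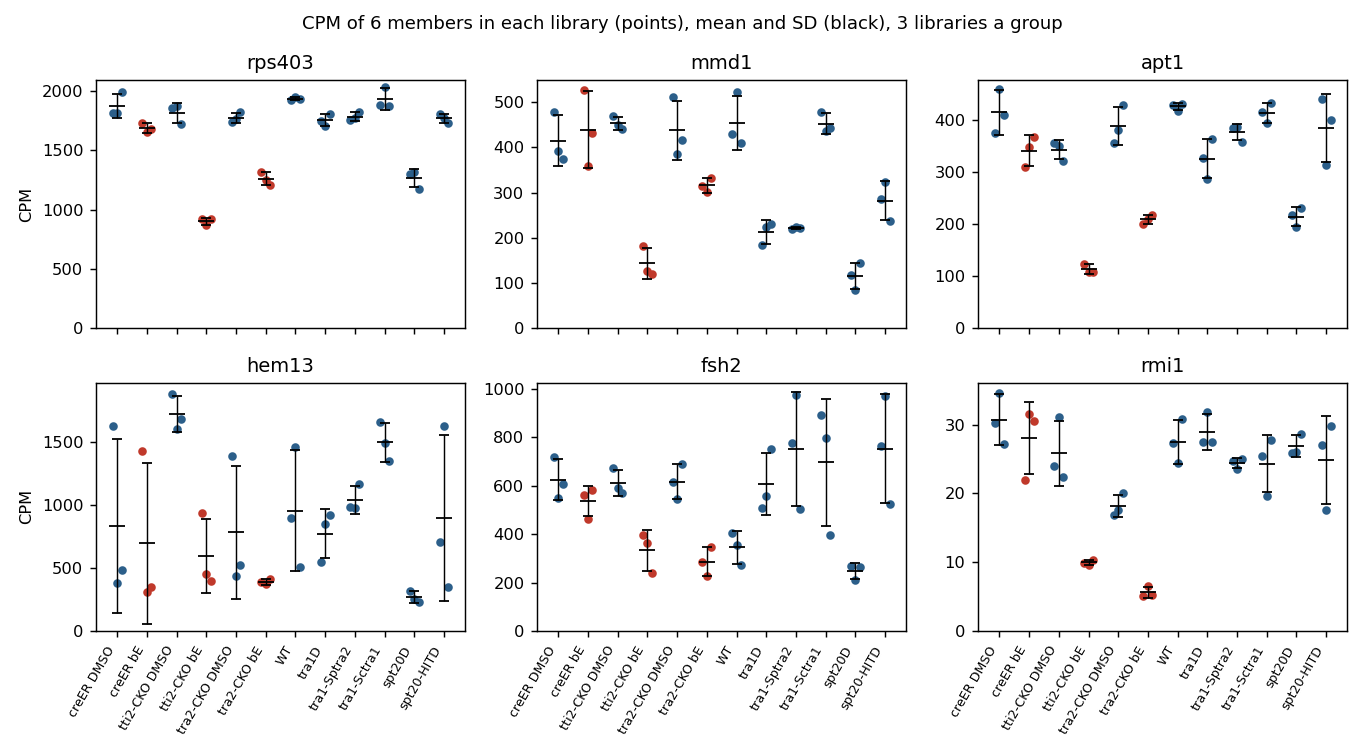
CPM in each library (points, red with β-estradiol) of 6 members, with the mean and SD of the 3 libraries of a group in black. rps403, mmd1 and apt1 are low both with β-estradiol in tti2-CKO and in spt20Δ. hem13 is low in spt20Δ. In tti2-CKO with β-estradiol (933, 450 and 400 CPM) it is below its DMSO cultures (1878, 1599 and 1680 CPM) but overlaps WT. fsh2 is high in several mutants, and rmi1 is lowest in tti2-CKO and tra2-CKO with β-estradiol.

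The ribosomal protein members were set beside their own paralogs. The 15 members belong to 14 gene families with 16 further copies that are not members, 9 of which passed the tti2-CKO threshold. In spt20Δ 11 of those 16 fell, and their median log2 fold change was −0.44. In 12 of the 14 families the member had the lowest value in spt20Δ. rps2601 fell by 0.79 (SE 0.10) and its paralog rps2602 had −0.18 (SE 0.086, adjusted p = 0.12 from edgeR). rpl1002 had −0.98 (SE 0.086) and rpl1001 −0.45 (SE 0.077), with the caution on rpl1002 given above. The exceptions were rpl5 and rpl23, where the order was the other way by less than 0.1. Members mostly also had the lower mean CPM over the 36 libraries, such as rps2601 (560 CPM) against rps2602 (1569 CPM). In rps4 the member rps403 (1645 CPM) lay between rps402 (1391 CPM) and rps401 (2167 CPM). Membership and level within a family thus go together, and whether level matters was not tested. Differences between paralogs were not tested, and reads shared by near-identical copies could not be followed here.

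**Figure D4:**
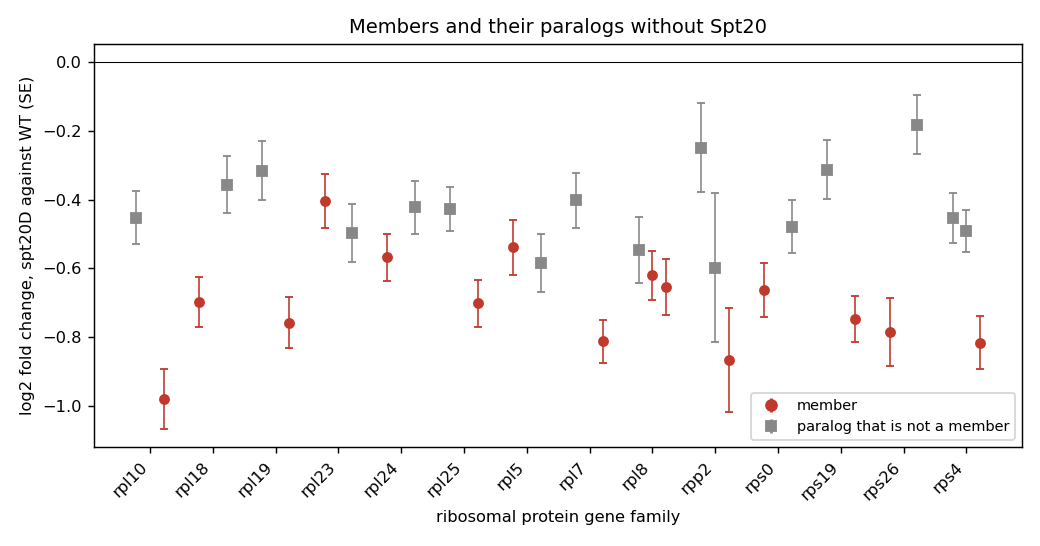
Log2 fold change in spt20Δ against WT (vertical axis, edgeR, bars are SE) of the 15 ribosomal protein members (red circles) and their 16 paralogs that are not members (grey squares), by gene family. Every point lies below 0, and the lowest of each family is a member except in rpl5 and rpl23.

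In spt20-HITΔ, which keeps most of Spt20, 0 members were called in either direction by edgeR (0.348% of the genes tested fell and 0.0409% rose). At an unadjusted p under 0.05 there were 12, 11 of them lower, but the share of all genes at that p was not counted. DESeq2 called 3 members, and a fit with a replicate block called 5. The median was −0.20, between that of spt20Δ and the 0.01 of all genes, and all 15 ribosomal protein members were below 0, from −0.54 to −0.11. The lowest adjusted p was 0.052, for mmd1, at 286, 325 and 237 CPM, below all WT and above all spt20Δ cultures. hem13 was at 710, 1627 and 354 CPM, a wider spread than in WT.

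spt20Δ was also compared directly with spt20-HITΔ, without the WT libraries. There 13 members were lower in spt20Δ (2.49% of genes) and 1 was higher (3.56%), with a median of −0.43. The lower ones held 6 ribosomal proteins, among them rpl1002 (−0.67), rps403 (−0.59) and rpl702 (−0.54), as well as mmd1 (−1.40), apt1 (−0.95), srm1 (−0.73), ubi2 (−0.50) and cbf5 (−0.47). The largest called difference was in fsh2, a serine hydrolase-like gene, with −1.72 (SE 0.22, adjusted p = 0.0027 from edgeR). The count depended on single cultures. It was 0 without spt20Δ replicate 1, 0 without replicate 2 and 3 without replicate 3. It was 1, 26 and 8 without spt20-HITΔ replicate 1, 2 and 3, and the median stayed between −0.48 and −0.36.

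fsh2 was at higher CPM in the other mutants than in WT, apart from 1 tra1-Sctra1 culture within the WT range. It was at 407, 356 and 274 CPM in WT and at 267, 211 and 265 CPM in spt20Δ (−0.69, SE 0.16, adjusted p = 0.008 from edgeR), a call lost without WT replicate 1 or 2 or any 1 spt20Δ replicate (adjusted p from 0.013 to 0.037). In spt20-HITΔ it was at 762, 972 and 523 CPM, in tra1Δ at 509, 558 and 750 CPM and in tra1-Sptra2 at 775, 974 and 505 CPM. All 9 of these cultures lay above all WT cultures, yet none of the 3 differences from WT was called (adjusted p = 0.072, 0.024 and 0.015 from edgeR). With column totals the difference in tra1-Sptra2 was called as higher (1.12, adjusted p = 0.0086). With DMSO in tti2-CKO it was at 672, 592 and 568 CPM, also above WT.

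In tra1Δ, which lacks Tra1, the SAGA paralog of Tra2, 2 members fell (2.37% of genes) and 1 rose (1.29%), with a median of −0.17 against 0.00 for all genes. mmd1 fell by 1.18 (SE 0.12, adjusted p = 0.0004 from edgeR), from 430, 522 and 410 CPM to 184, 225 and 231 CPM. SPBC1271.10c fell by 0.61 (SE 0.10, adjusted p = 0.0053). odr1, a hydrolase-like gene, rose by 0.54 (adjusted p = 0.0092), from 80.2, 82.1 and 70.1 CPM to 111, 132 and 114 CPM. The calls on SPBC1271.10c and odr1 were each lost without WT replicate 1 or any 1 tra1Δ replicate, and that on mmd1 was kept. Of the 15 ribosomal proteins 0 were called by edgeR, though all were below 0 and 3 had an unadjusted p under 0.05. The share of all genes at that unadjusted p was not counted. The count of called members was 1 without WT replicate 1, tra1Δ replicate 2 or tra1Δ replicate 3, and 5 without WT replicate 2 or 3.

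The direct comparison of spt20Δ with tra1Δ called 27 members lower in spt20Δ (7.63% of genes) and 2 higher (9.14%), with a median of −0.40. Of the ribosomal protein members 12 of 15 were lower. mmd1, low in both strains, was lower still in spt20Δ, with a log2 fold change of −1.002 (SE 0.14, adjusted p = 0.00059 from edgeR). hem13 was lower by 1.64 and fsh2 by 1.41. SPAC11D3.10, a cysteine desulfurase-like gene, was higher in spt20Δ by 0.74 and SPACUNK4.15 by 0.54. Without spt20Δ replicate 1 or 2 the count was 16.

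The hybrid alleles parted. tra1-Sptra2 called 8 members lower (5.34% of genes) and 0 higher (3.16%), with a median of −0.21. They were mmd1 (−1.13, SE 0.11, adjusted p = 0.00046 from edgeR), SPBC1271.10c (−0.88), acl4 (−0.55), dbp3 (−0.49), arx1 and ani1 (both −0.41), SPAC29E6.06c (−0.31) and prs1 (−0.30). mmd1 was at 220, 224 and 222 CPM, as in tra1Δ. The ribosomal protein members were all below 0 and not called by edgeR, and the lowest adjusted p among them was 0.023. At an unadjusted p under 0.05 there were 11 of them, with the share of all genes not counted. Omitting WT replicate 1 or replicate 1 or 2 of tra1-Sptra2 gave 2 calls, omitting tra1-Sptra2 replicate 3 gave 3, and omitting WT replicate 3 gave 17. With the column totals it was 5, with 2 lower and 3 higher.

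In tra1-Sctra1, 0 members were called by edgeR (0.0817% of genes fell and 0.204% rose) and the median was 0.00. There were 10 members with an unadjusted p under 0.05, 5 of them lower, with the share of all genes not counted, and DESeq2 called 1. mmd1 was at 479, 436 and 444 CPM, and rps403 at 1881, 2035 and 1872 CPM, both overlapping WT. Set against each other, tra1-Sptra2 was lower than tra1-Sctra1 in 7 members (3.7% of genes) and higher in 0 (0.919%). These were mmd1 (−1.11, adjusted p = 3.1e-07 from edgeR), sur2 (−0.83), hem13 (−0.61), scs7 (−0.57), SPBC1271.10c (−0.43), dbp3 (−0.42) and slf1 (−0.30). The median was −0.19. Of the 7, sur2, hem13, scs7 and slf1 were not called against WT in either hybrid. Against WT, hem13 had 0.01 in tra1-Sptra2 and 0.63 in tra1-Sctra1, sur2 −0.55 and 0.29, and scs7 −0.34 and 0.24. Like hem13 and sur2, scs7 varied widely among WT cultures (946, 1320 and 700 CPM). Omitting tra1-Sptra2 replicate 1 or 2 gave 3 calls, and omitting tra1-Sptra2 replicate 3 or tra1-Sctra1 replicate 1 gave 4.

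**Figure D5:**
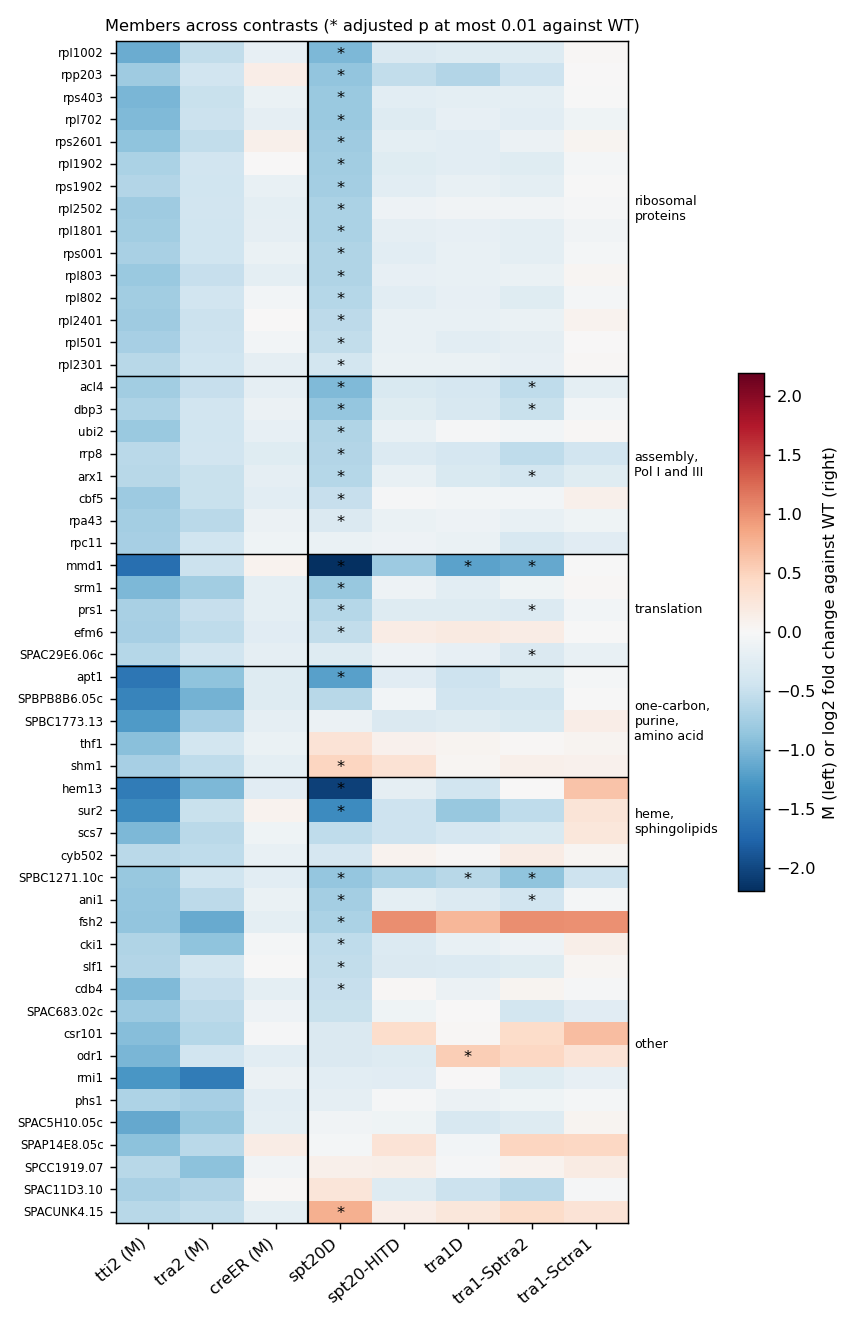
All 53 members (rows, by class) in the 3 contrasts of the rule (left, M) and in 5 mutants against WT (right, edgeR log2 fold change), with blue for lower, red for higher and stars for an adjusted p of at most 0.01. M is scaled by column totals and the right side by TMM, so colours left and right are not on the same scaling. The spt20Δ column carries 37 stars, tra1-Sptra2 8, tra1Δ 3 and the others 0, and mmd1 and SPBC1271.10c are the members with a star in 3 mutants.

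Side by side over the 5 mutants, which share their WT libraries, the member medians were −0.62 in spt20Δ, −0.21 in tra1-Sptra2, −0.20 in spt20-HITΔ, −0.17 in tra1Δ and 0.00 in tra1-Sctra1. The SD of that median over the 3 cultures of a mutant was 0.011 in spt20Δ, 0.042 in tra1-Sptra2, 0.085 in spt20-HITΔ, 0.093 in tra1Δ and 0.078 in tra1-Sctra1. That SD leaves out the spread among the WT cultures. The middle 3 medians lay close together, and those mutants were not compared with each other. With column totals the medians were −0.41 in spt20Δ, −0.12 in tra1-Sptra2, −0.090 in spt20-HITΔ and −0.10 in tra1Δ. In 41 of 53 members the value in spt20Δ was the lowest of the 5, as it was in 34.2% of the 4878 genes tested in all 5. A total of 36 members fell in at least 1 mutant (15.3% of those genes did), 3 rose in at least 1 (14.7%), and 14 were called in none. Of the 17 members that passed the rule with every culture left out, 14 fell in spt20Δ (12.8% of the 4920 genes tested there) and 0 rose (13.1%). Their median was −0.64.

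The wider classes to which the members belong were counted with the same test. Of 137 cytosolic ribosomal protein genes, 96 fell in tti2-CKO with β-estradiol (13.1% of genes fell and 9.84% rose), 77 in tra2-CKO (9.45% fell and 13.4% rose) and 0 in creER (0.143% fell and 1.02% rose). Among the 122 that are not members, 81 and 62 fell in tti2-CKO and tra2-CKO. In spt20Δ 84 fell and 1 rose, and 69 of the 122 that are not members fell. The median in spt20Δ over all 137 was −0.42. In tra1-Sptra2 2 fell, in tra1-Sctra1 1, and in tra1Δ and spt20-HITΔ 0 did, with medians of −0.19, 0.00, −0.16 and −0.17. The counts in tti2-CKO and tra2-CKO are descriptions, since members in a list were chosen on those contrasts. Of 96 ribosome biogenesis genes, 41 fell in tti2-CKO, 8 in tra2-CKO (1 rose), 31 in spt20Δ and 12 in tra1-Sptra2. Of 43 cytosolic translation factors, 13, 15, 20 and 7 fell in the same order, and of 25 subunits of RNA polymerases I and III, 10, 3, 8 and 4 fell. Without the members, 40 and 8 biogenesis genes and 8 and 1 polymerase subunits fell in tti2-CKO and tra2-CKO, and the translation factors hold no member. In addition 1 translation factor rose in spt20Δ and 2 polymerase subunits rose in tra2-CKO.

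Lists outside ribosome production were counted in the same way. Of 18 purine and pyrimidine synthesis genes, 11 fell and 1 rose in tti2-CKO, 11 fell and 2 rose in tra2-CKO, and 7 fell in spt20Δ. apt1 is the member among them. Of the membrane transporters tested, 35 fell and 34 rose in tti2-CKO and 31 fell and 31 rose in spt20Δ. Of 12 heat shock genes, 9 rose in tra2-CKO, 3 in tti2-CKO (2 fell) and 3 in creER. Of 12 NuA4 genes 0 fell and 1 rose in tti2-CKO, and 2 fell and 1 rose in tra2-CKO, where the deleted tra2 itself is among the 2. Of 18 SAGA genes 1 fell and 1 rose in tti2-CKO, 2 fell and 1 rose in tra2-CKO, and 1 fell and 3 rose in spt20Δ. The 1 that fell in spt20Δ was the deleted spt20 itself. Of 7 TTT and PIKK genes, tti2 itself was the 1 called in tti2-CKO, 3 rose in tra2-CKO and 1 rose in spt20Δ. In bulk RNA a smaller share of counts does not tell fewer transcripts per cell from more of the others. The members took 3.41% of all counts in WT (SD 0.15, n = 3), 2.61% in spt20Δ (SD 0.043), 1.91% in tti2-CKO with β-estradiol (SD 0.074) and 2.31% in tra2-CKO with β-estradiol (SD 0.011).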

How the data were processed

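RNA-seq counts of 36 libraries were analysed, as counts that the authors deposited without normalization, made by trimming adapters, aligning with HISAT2 2.1.0 and counting reverse-stranded reads per gene with HTSeq 0.9.1 (versions from the submitters' processing notes, which also name DESeq2 1.18.1). The number of unused columns was 0. The genome build is not given in the sources used here. Gene names, lengths and promoters come from RefSeq ASM294v3, matched by ID (5111 of 5129 IDs). Fits used edgeR 4.0.16 (R 4.3.3) and only the 6 libraries being compared (TMM, filterByExpr with a minimum count of 10, quasi-likelihood F-test, Benjamini-Hochberg over all genes tested). SE is the log2 fold change divided by the square root of F. The members, lists and classes were chosen with earlier results of these data known. Named genes were the 10 lowest members by the sum of M, the 3 largest called changes each way against WT, the 5 highest ribosomal protein and other members, those nearest a threshold, the targeted genes and the largest differences between spt20Δ and spt20-HITΔ. Others were named after their values were seen. Like-numbered cultures deviated together (every correlation over 0.1) in spt20Δ and tra1-Sctra1 against WT only. In spt20-HITΔ against WT the correlations of replicates 1, 2 and 3 were −0.07, 0.55 and 0.68. In spt20Δ against spt20-HITΔ they were 0.02, 0.38 and 0.48. What the replicate numbers mean is not stated. The fits were tested on simulated data. Alternatives were RLE, DESeq2 1.42.0, other low-count filters, a replicate block, a fit of all 36 libraries, a fold minimum of 1.5, leaving out each culture and, added after seeing the data, column totals.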

Additional observations from a re-analysis of the deposited data

How the results depend on the processing

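Over 29 named members and the 5 comparisons with WT, no called change reversed under the alternatives tried. A call was lost in 53 and gained in 52 of the combinations of member, comparison and alternative. Counts of members called were as follows where they moved by over 1.5 times, and for spt20Δ against WT, where they did not. The share of all genes called was not counted for the alternative fits. These counts therefore do not tell whether members moved more than other genes. DESeq2 called 7 in tra1Δ, 19 in tra1-Sptra2, 1 in tra1-Sctra1, 3 in spt20-HITΔ, 28 in spt20Δ against spt20-HITΔ and 12 between the hybrids. A fold minimum of 1.5 left 2 in tra1-Sptra2, 8 in spt20Δ against spt20-HITΔ, 14 in spt20Δ against tra1Δ and 3 between the hybrids. The fit of all 36 libraries called 2 in spt20-HITΔ. Column totals gave 5 in tra1-Sptra2 and 4 between the hybrids. With the replicate block 3 were called in tra1-Sptra2, 5 in spt20-HITΔ and 23 in spt20Δ against spt20-HITΔ. In these comparisons not all like-numbered cultures deviated together. The block called 43 in spt20Δ against WT. Leaving out a culture gave 1 to 5 in tra1Δ, 2 to 17 in tra1-Sptra2, 27 to 37 in spt20Δ, 0 to 26 in spt20Δ against spt20-HITΔ, 16 to 35 in spt20Δ against tra1Δ and 3 to 9 between the hybrids. The member median in tra1-Sptra2 was −0.26 without ribosomal proteins, −0.12 with column totals and −0.24 to −0.16 with a culture left out. In spt20Δ it was −0.52 without ribosomal proteins, −0.64 with RLE, −0.63 with DESeq2, −0.41 with column totals and −0.61 to −0.58 with a culture left out. In spt20-HITΔ it was −0.090 with column totals. Scaling by TMM would give 120 members, which include all 53. The causes were not tested.

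The SE in spt20Δ was widest for hem13 (0.35) and sur2 (0.32), which vary among cultures, and was 0.11 for rmi1, near 20 CPM. Every test rests on 3 libraries a group.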
